A study of Homo sapiens with 64 samples.

Results

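The chaperones and quality control genes of the endoplasmic reticulum (ER), with the sensors of the unfolded protein response, were followed as a set of 31 genes among the 26364 genes counted in the series. The members were taken from a list by name: 4 sensors and transducers, 10 chaperones of the HSP70 and HSP90 families with their co-factors, 4 disulfide isomerases, 3 genes of the lectin cycle, 8 genes of ER-associated degradation and 2 subunits of the translocon. The samples were NCI-H295R cells, an adrenocortical carcinoma line that makes steroid hormones, in which NNT was knocked down; NNT encodes the mitochondrial transhydrogenase that makes NADPH. The 5 groups were cells with a short hairpin against NNT (NNT shRNA, 4 libraries), cells with a scrambled hairpin (scrambled shRNA, 3), cells given 1 of a pair of NNT siRNAs (siRNA-2, 3, or siRNA-3, 3) and cells given a scrambled siRNA (3). The siRNA cells were collected 72 h after transfection. No time, clone or promoter is given for the shRNA cells. Libraries are named by their group and by the code in their title, such as 18-3; no code is shared between the shRNA and the siRNA libraries. Values per library are given in the order 18-3, 19-2, 2-3, 24-2 for NNT shRNA, 18-3, 19-2, 24-2 for scrambled shRNA, 11-12, 11-1, 16-1 for siRNA-2, 11-1, 23-5, 30-11 for siRNA-3 and 16-1, 23-5, 30-11 for scrambled siRNA.

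The ER folds secreted and membrane proteins. When unfolded proteins build up in it, 3 sensors in its membrane respond. IRE1, encoded by ERN1, splices the XBP1 messenger, PERK (EIF2AK3) slows translation and favours ATF4, and ATF6 is cut to release a transcription factor. XBP1 and ATF6 then raise chaperones and degradation genes. Steroid-making cells carry a large smooth ER, where several of the steroid enzymes sit. Counts per gene do not separate the spliced from the unspliced XBP1 messenger.

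The promoters of several members hold the letters that the ATF6 and XBP1 factors are known to recognise. RefSeq promoters (GRCh38.p14, 250 bases before to 50 bases after the start) were matched by symbol for 29 of the 31 members. The ER stress element was searched as CCAAT and CCACG with 9 bases between, and the ER stress element II as ATTGG and CCACG with 1 base between, both on either strand. The first was found in 7 of the 29 genes (CALR, CANX, CRELD2, HSP90B1, HSPA5, PDIA6 and XBP1), which is 24.1%, against 0.0916% of the 27305 genes in the table. The second was found in 3 (HERPUD1, HYOU1 and SDF2L1), against 0.0696% of all genes. The members thus made up 10 of the 44 genes in the table with a match to either. The motifs and the members were both chosen as known parts of the same response. This share is therefore a description, was not tested and is no independent evidence about the list. The UPR element core TGACGTGG was found in HYOU1 alone among the members (0.927% of all genes), where it overlaps the farther element II. The ATF4 core, TGATG and AA with 1 base between, was found in HERPUD1 alone (4.46% of all genes). The following 5 stretches, each the 250 bases before the start, are shown because their genes differed between groups. Capitals mark the fixed letters of each match (element II lies on the other strand in SDF2L1 and HYOU1, and so reads CGTGG then CCAAT), and the DNAJB9 stretch has none.
HSPA5 (chr9:125241344-125241593, minus strand): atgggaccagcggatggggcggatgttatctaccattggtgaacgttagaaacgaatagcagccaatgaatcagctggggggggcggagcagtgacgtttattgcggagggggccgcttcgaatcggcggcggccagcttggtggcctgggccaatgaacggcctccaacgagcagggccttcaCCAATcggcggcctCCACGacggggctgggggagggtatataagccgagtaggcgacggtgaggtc
XBP1 (chr22:28800570-28800819, minus strand): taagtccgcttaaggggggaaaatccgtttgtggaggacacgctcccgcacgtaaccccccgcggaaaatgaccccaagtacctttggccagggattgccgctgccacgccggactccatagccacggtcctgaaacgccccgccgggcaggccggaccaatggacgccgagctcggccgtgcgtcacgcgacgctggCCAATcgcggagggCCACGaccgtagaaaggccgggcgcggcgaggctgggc
SDF2L1 (chr22:21642052-21642301, plus strand): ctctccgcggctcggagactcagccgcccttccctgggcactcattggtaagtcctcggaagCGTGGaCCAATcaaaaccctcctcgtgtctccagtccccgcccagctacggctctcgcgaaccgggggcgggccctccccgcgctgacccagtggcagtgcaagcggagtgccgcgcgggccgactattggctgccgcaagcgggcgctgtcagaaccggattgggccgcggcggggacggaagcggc
HYOU1 (chr11:119057206-119057455, minus strand): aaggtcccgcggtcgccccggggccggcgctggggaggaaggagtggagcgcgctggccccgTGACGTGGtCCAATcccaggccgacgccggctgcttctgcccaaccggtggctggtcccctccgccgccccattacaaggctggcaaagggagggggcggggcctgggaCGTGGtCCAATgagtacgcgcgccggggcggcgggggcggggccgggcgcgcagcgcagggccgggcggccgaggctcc
DNAJB9 (chr7:108569624-108569873, plus strand): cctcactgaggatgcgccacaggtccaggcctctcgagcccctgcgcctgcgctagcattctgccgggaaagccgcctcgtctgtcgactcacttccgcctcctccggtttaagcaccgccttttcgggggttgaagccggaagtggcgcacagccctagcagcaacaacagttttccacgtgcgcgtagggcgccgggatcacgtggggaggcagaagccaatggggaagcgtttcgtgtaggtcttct

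A gene was counted if any of its listed starts had a match. XBP1, PDIA6 and CANX also have a listed start without one. In HSPA5 the match began 66 bases before the start and in XBP1 52 bases before the start shown. HYOU1 had a pair of matches, beginning 185 and 79 bases before the start, and SDF2L1 had 1 at 188 bases. Of the 6 members that were higher in scrambled siRNA than in scrambled shRNA cells, HSPA5, SDF2L1 and XBP1 had a match, and DNAJB9, DNAJC3 and EDEM1 had none of the 4 motifs. A match is a run of letters in a reference window and shows no binding.

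**Figure D1:**
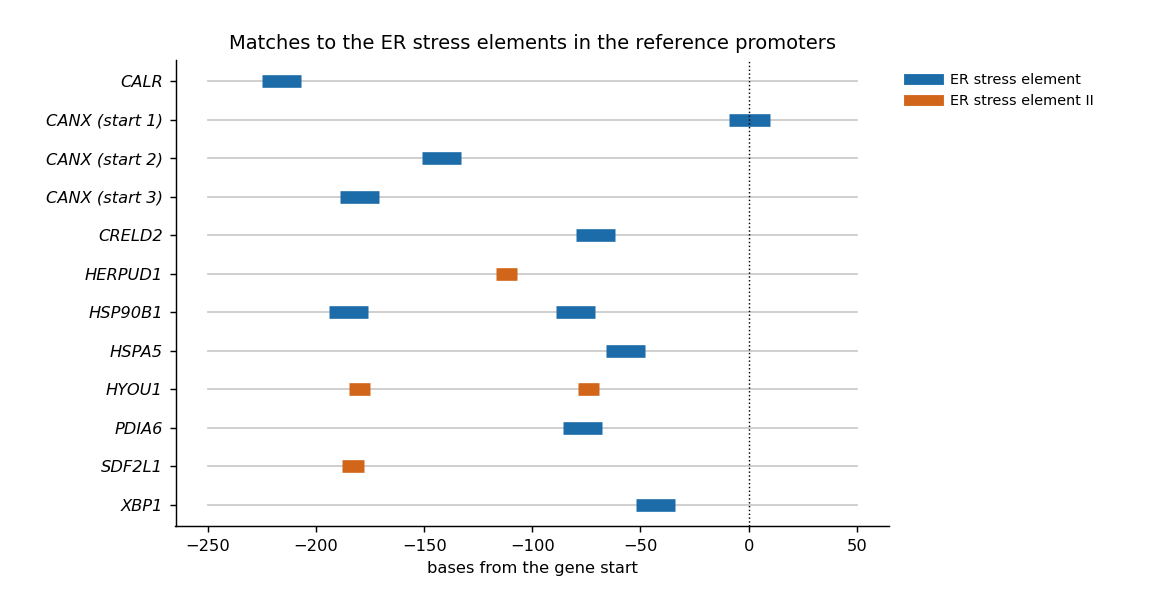
Positions of the matches to both ER stress elements in RefSeq promoters (x axis, bases from the gene start; each grey line is 1 annotated start, and CANX has 3 with a match). The 10 genes with a match are shown; most matches lie upstream of the start, and 1 CANX start lies within the match.

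Each library held 20148231 to 43992833 gene counts, and the members had 193 to 58652 counts each. NNT itself stood at 28.7 to 34.6 CPM (counts scaled to the library total) in the NNT shRNA libraries against 317 to 415 in their controls. It stood at 233, 49.9 and 186.8 in siRNA-2, at 36.1, 31.8 and 47.8 in siRNA-3 and at 296 to 362 in scrambled siRNA, so every knockdown library lay below its controls. Against its control NNT was 11.7-fold lower with the shRNA and 8.73-fold lower with siRNA-3, and both passed. With siRNA-2 it was 2.15-fold lower, which did not pass (edgeR adjusted p = 0.0777). All 8 adrenocortical markers, STAR and CYP11A1 among them, had counts in all 16 libraries. The 6 chromaffin or neural markers summed to 25.1 to 28.1 CPM in scrambled shRNA and to 15.6 to 17.9 in scrambled siRNA, nearly all of it CHGB, with PNMT at 0 in every library. Their sum was 27.4 to 28.1 CPM with NNT shRNA, 23.3 to 28.1 with siRNA-2 and 13.7 to 15.8 with siRNA-3. Fibroblast markers summed to 7.8 CPM in the siRNA-3 library 23-5, the lowest, and to 21.6 in the siRNA-2 library 11-1, the highest. Nearly all of this was COL1A1, at 7.67 to 21.2 CPM. The next highest sum was 15.4, in NNT shRNA 2-3. Blood markers summed to at most 0.703 CPM and endothelial ones to at most 0.0712. In bulk RNA, fewer cells with a transcript and less of it per cell cannot be told apart.

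Per length, the general folding machinery was the most abundant. Levels are given here as CPM per kilobase of exon (GENCODE version 29), the median and range over the 16 libraries. HSP90B1, the HSP90 of the ER, led with 347 (295 to 389), followed by the lectin chaperones CANX with 313 (288 to 383) and CALR with 279.6 (252 to 315). The disulfide isomerases P4HB (234) and PDIA3 (225), the translocon subunit SEC61B (209.6) and the HSP70 HSPA5 (200.1) came next, and the ranges of these 4 overlapped. The sensors lay at the low end, with EIF2AK3 at 9.18 (7.96 to 10.5) and ERN1 at 7.37 (5.69 to 8.67), and CRELD2 was lowest at 6.48 (5.03 to 7.96). The ranges of EIF2AK3, ERN1 and CRELD2 overlapped too. SEC61B had the widest fall of a single library among the abundant members, with 126 CPM per kilobase at its lowest, in the siRNA-3 library 23-5.

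**Figure D2:**
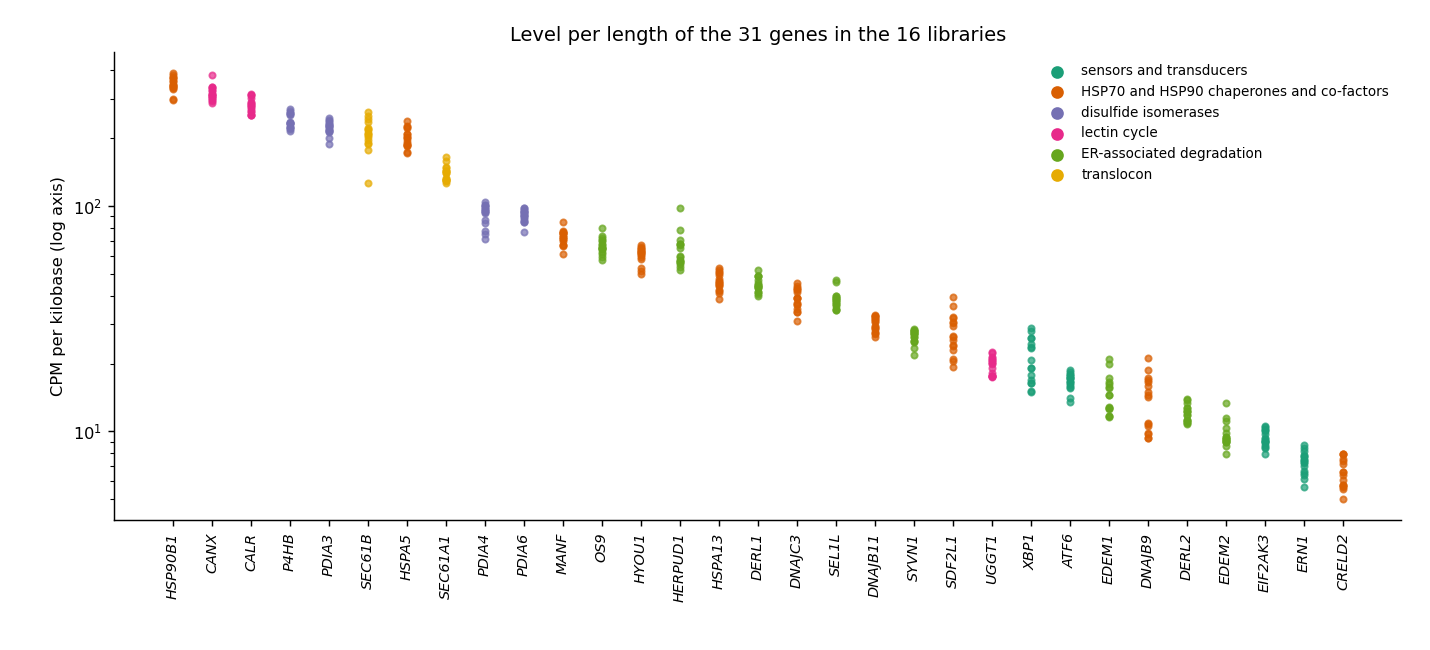
Level of the 31 genes per length (y axis, CPM per kilobase of exon, log scale; each point is 1 of the 16 libraries, coloured by role), in order of the median. HSP90B1 stands at a median of 347 and CRELD2 at 6.48.

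The knockdown comparisons moved few members, and the shRNA moved none. A gene was called at an adjusted p under 0.05 from edgeR's quasi-likelihood test over the 15201 genes tested, all 31 members included. Against scrambled shRNA, NNT shRNA called 0 of the 31 members, beside 0.0197% of all genes. No member had an unadjusted p under 0.05, and DESeq2 called 0 as well. The 31 log2 fold changes lay between -0.05 and 0.13 with standard errors of 0.06 to 0.16. Of them 27 were above 0, with a median of 0.046, beside 52.6% of all genes and a median of 0.006. Against scrambled siRNA, siRNA-2 called 0 members (4 with an unadjusted p under 0.05, and 1, DERL2, by DESeq2), beside 1.97% of all genes. Their median was -0.048, beside 0.007 for all genes. The siRNA-3 cells had 1 lower member, HYOU1, beside 1.26% of all genes lower and 2.12% called in either direction. There 8 members had an unadjusted p under 0.05, and DESeq2 called 4 (HYOU1, SDF2L1, CRELD2 and SEL1L). Their median was -0.04, beside -0.003. For the mean of both siRNAs 0 members were called (5 with an unadjusted p under 0.05, 0 by DESeq2), beside 0.23% of all genes, with a median of -0.061 beside 0.001. These 3 siRNA comparisons share their control libraries.

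Between the delivery systems more members differed, without any knockdown. The scrambled siRNA cells had 6 of the 31 members higher than the scrambled shRNA cells and 0 lower, beside 0.684% of all genes higher and 1.74% called in either direction. In 16 members every scrambled siRNA library lay above every scrambled shRNA library, beside 12.5% of all genes. Of the 31 members 29 had a log2 fold change above 0, with a median of 0.152, beside -0.002 for all genes. The 6 were XBP1, DNAJB9, SDF2L1, EDEM1, DNAJC3 and HSPA5. The count fell to 3 without the scrambled shRNA library 18-3 or 24-2 or the scrambled siRNA library 16-1, and to 2 without the scrambled shRNA library 19-2 or the scrambled siRNA library 23-5; XBP1 and DNAJB9 passed in each of these. The transfection, the hairpin vector, the time in culture and any batch of the 2 systems cannot be told apart. The chromaffin or neural sum was apart without overlap in this comparison, between the siRNAs, between siRNA-2 and scrambled siRNA, and between siRNA-3 and NNT shRNA, and its part in their differences was not tested.

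The delivery systems were then compared in the knockdown cells, which share no library with the scrambled ones. This comparison was added after the data had been seen. NNT itself was 2.45-fold higher with the siRNAs than with the shRNA (log2 1.29, SE 0.27, edgeR adjusted p = 0.00915). The depth of the knockdown and the delivery system cannot be told apart here. The mean of both NNT siRNAs had 5 members higher than NNT shRNA and 0 lower, beside 3.62% of all genes higher and 7.28% called in either direction. The 5 were DNAJB9, XBP1, EDEM1, HERPUD1 and DNAJC3. In 4 members (DNAJB9, EDEM1, DNAJC3 and SEC61A1) all 6 siRNA libraries lay above all 4 shRNA libraries, beside 3.03% of all genes. In OS9 all 6 lay below all 4 (191.9 CPM at most against 194.6 at least), as in 514 of the 15201 genes tested. The median of the 31 was 0.085, beside -0.011 for all genes. DESeq2 called 10 members. Among them CRELD2 and OS9 had lower means with siRNA-2 and siRNA-3 than with NNT shRNA. CRELD2 had 9.53 and 8.52 CPM against 11.2, and OS9 had 176 and 183 against 207.5. The count was 3 (XBP1, DNAJB9 and EDEM1) when the NNT shRNA library 18-3 or 19-2, or the siRNA-3 library 11-1, was left out.

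**Figure D3:**
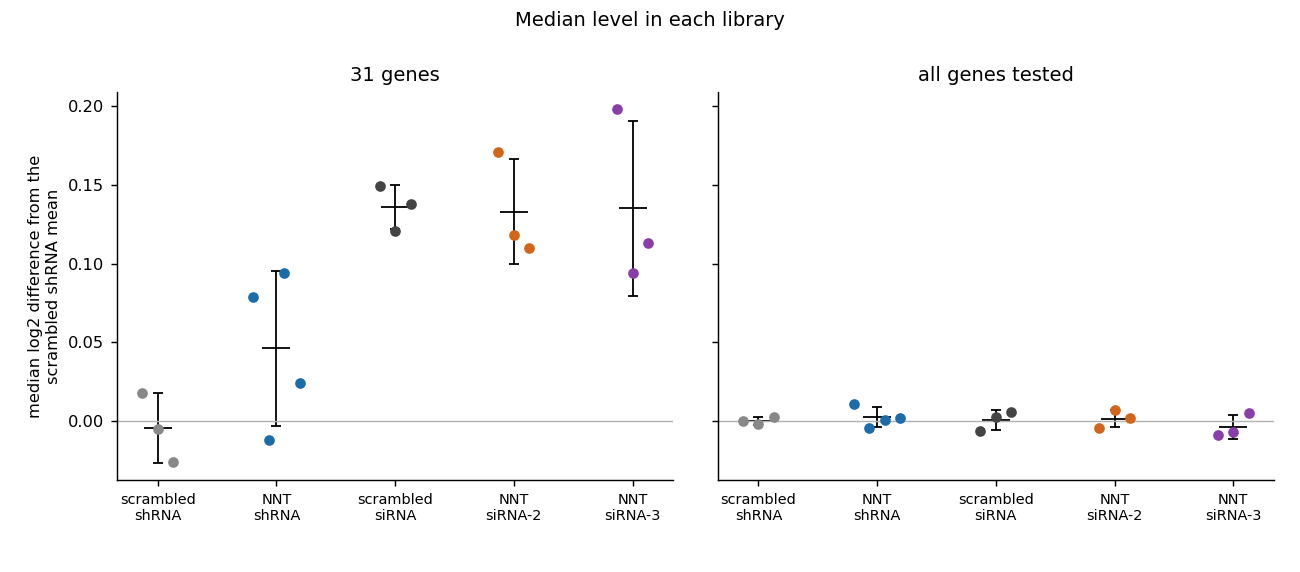
Median over the 31 genes (left) and over all 15201 genes tested (right) of the log2 difference from the scrambled shRNA mean (y axis), 1 point a library, with the group mean and SD. The scrambled siRNA libraries sit between 0.121 and 0.149 and the scrambled shRNA libraries between -0.026 and 0.018, while the medians of all genes stay between -0.009 and 0.011.

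Per library, the median of the 31 members against the scrambled shRNA mean was 0.094 to 0.198 in the 6 NNT siRNA libraries and -0.012 to 0.094 in the 4 NNT shRNA libraries. The highest NNT shRNA library, 2-3, was level with the siRNA-3 library 23-5, so the knockdown groups of the 2 systems met at their edge, while the scrambled groups did not overlap.

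The siRNA-2 and siRNA-3 cells were then set against each other, and 3 members differed. HYOU1 and EDEM2 were higher and DERL2 lower with siRNA-2, beside 7.36% of all genes higher, 7.05% lower and 14.4% in either direction. The members' share was thus below that of all genes. In a fit of the siRNA-2 and siRNA-3 libraries alone 0 of the 3 passed, and without the siRNA-3 library 11-1 HYOU1 alone did. Paired by title code, 5 passed (HYOU1, EDEM2, HERPUD1, HSPA13 and SDF2L1). The difference between the shRNA effect and the mean siRNA effect passed for 0 members (3 with an unadjusted p under 0.05, 0 by DESeq2), beside 0.00658% of all genes. SDF2L1 had the smallest p there, with a difference of 0.45 on the log2 scale (SE 0.16).

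**Figure D4:**
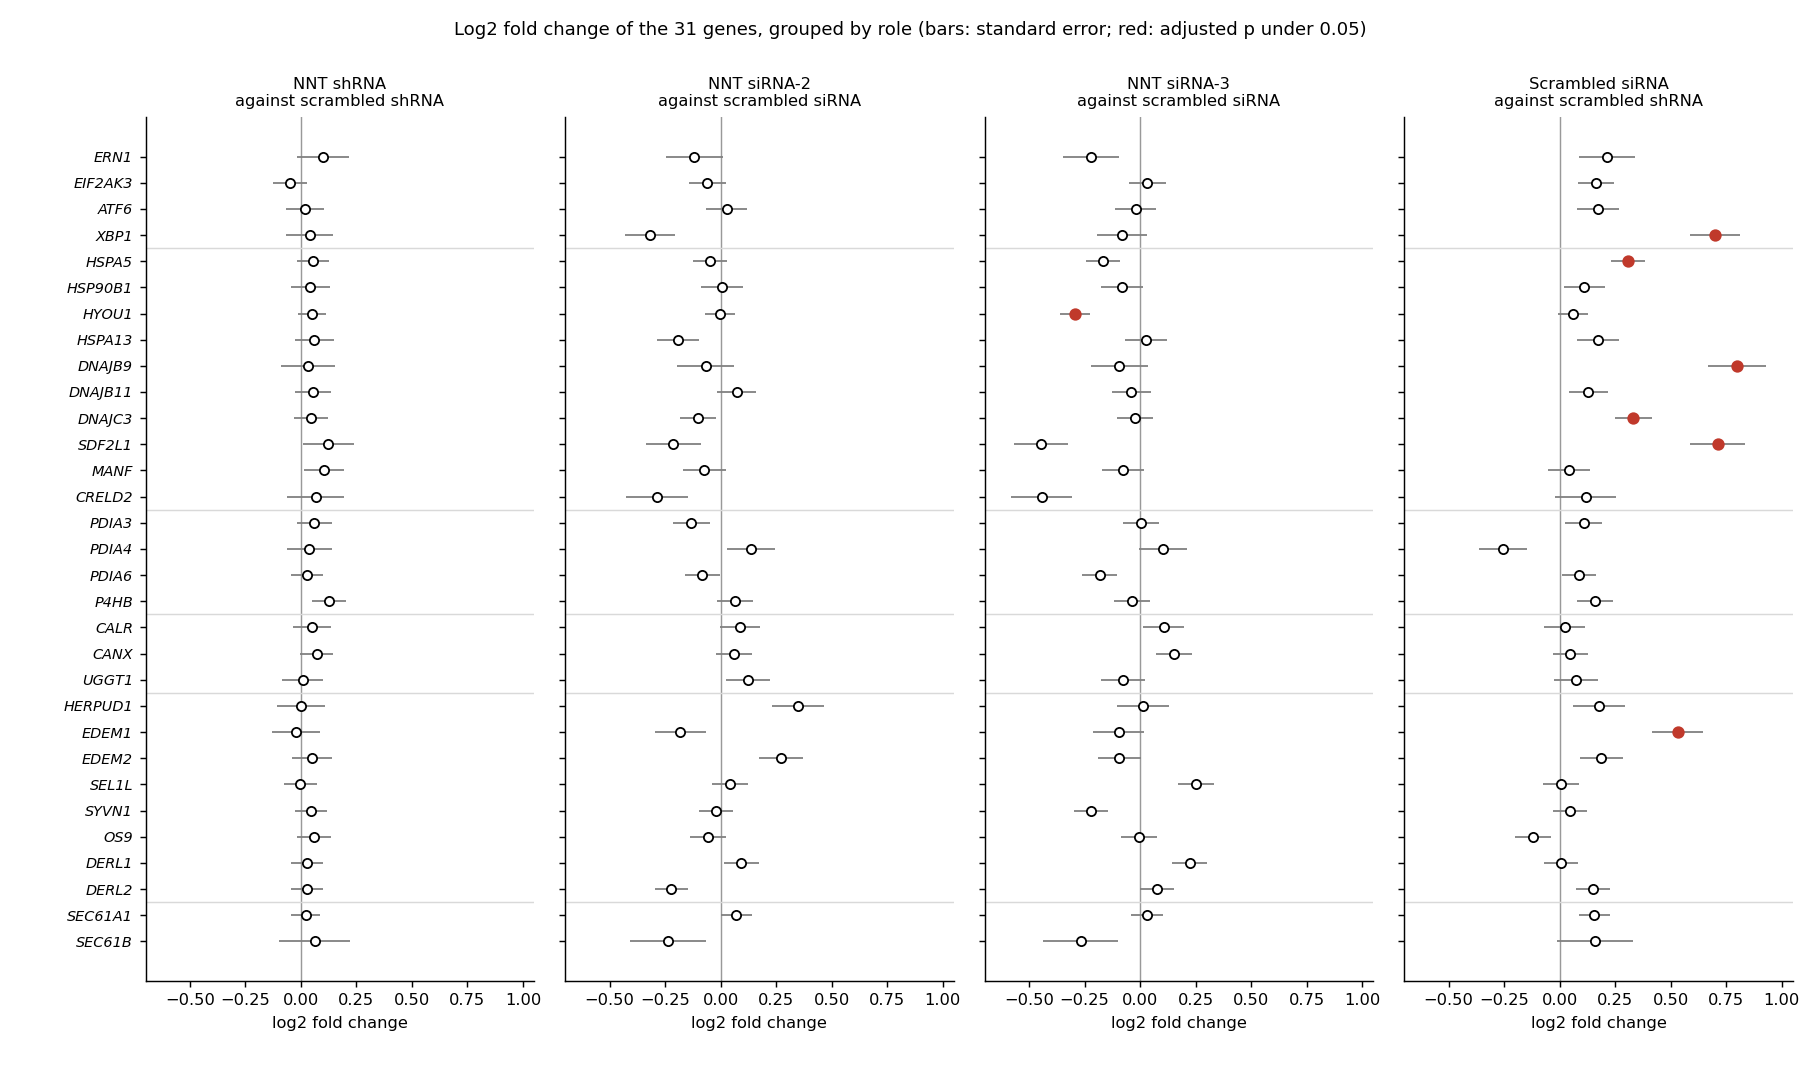
Log2 fold change (x axis) of the 31 genes, in order of role, in 4 comparisons; bars are standard errors and red points have an edgeR adjusted p under 0.05. The shRNA knockdown panel stays between -0.05 and 0.13, the siRNA-3 panel has 1 red gene, HYOU1, and the panel of scrambled siRNA against scrambled shRNA has 6.

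Among the sensors and transducers, XBP1 differed between the systems and the 3 membrane sensors did not pass in edgeR; DESeq2 called EIF2AK3 between the knockdowns of the systems. XBP1, the transcription factor made active by IRE1, stood at 56.9, 47.8 and 58.8 CPM in scrambled siRNA and at 33.4, 36.4 and 30.6 in scrambled shRNA. It stood at 39, 42.2 and 49.8 CPM with siRNA-2, at 52.9, 48.5 and 52.9 with siRNA-3, and at 39.1, 34.4, 30.8 and 33.4 with NNT shRNA. The scrambled groups did not overlap, and the lowest siRNA-2 library lay just below the highest NNT shRNA library. XBP1 was 1.62-fold higher in scrambled siRNA than in scrambled shRNA cells (log2 0.70, SE 0.11, edgeR adjusted p = 0.00528). In the NNT knockdowns it was 1.38-fold higher with the siRNAs than with the shRNA (log2 0.46, SE 0.09, edgeR adjusted p = 0.00583). XBP1 passed in every alternative of both comparisons. With siRNA-2 it stood -0.32 from its control on the log2 scale (SE 0.11), which did not pass (edgeR adjusted p = 0.134).

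ERN1, which encodes IRE1, stood at 83, 79.8 and 71.4 CPM in scrambled siRNA, at 73, 55.7 and 73.4 in scrambled shRNA and at 62.4, 84.9, 65.6 and 75.8 with NNT shRNA. With siRNA-2 it had 70.9, 76.1 and 69 CPM and with siRNA-3 60.1, 76.9 and 64. All 5 groups overlapped. EIF2AK3, the PERK kinase, had 44.7, 48.5 and 50.4 CPM in scrambled siRNA, 43.9, 40.8 and 43.5 in scrambled shRNA, and 41, 38.5, 43.6 and 42.2 with NNT shRNA. It had 49.3, 43.4 and 45.1 CPM with siRNA-2 and 50.9, 47.1 and 48.8 with siRNA-3. The scrambled groups did not overlap, yet the difference of 0.16 on the log2 scale (SE 0.08) missed the threshold (edgeR adjusted p = 0.329). ATF6 had 134, 129.6 and 129 CPM in scrambled siRNA, 117, 105 and 126 in scrambled shRNA and 120.5, 101, 131 and 118 with NNT shRNA. It had 134, 138 and 129 CPM with siRNA-2 and 140.3, 123 and 124 with siRNA-3. Its scrambled groups did not overlap either, with a difference of 0.17 (SE 0.09) that missed the threshold.

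Of the HSP70 and HSP90 chaperones and their co-factors, HSPA5, DNAJB9, DNAJC3 and SDF2L1 were higher in scrambled siRNA than in scrambled shRNA, and HYOU1 fell with siRNA-3, all in edgeR. HSPA5, the HSP70 that holds the sensors inactive and binds unfolded chains (BiP), had 814, 928 and 883 CPM in scrambled siRNA and 726, 722 and 672 in scrambled shRNA. With siRNA-2 it had 789, 879.6 and 869.8 CPM, with siRNA-3 814, 751 and 775.5, and with NNT shRNA 789, 681, 734 and 731.5. It was 1.24-fold higher in scrambled siRNA (log2 0.31, SE 0.08, edgeR adjusted p = 0.0473) without overlap. This call was lost when any 1 of the 6 scrambled libraries was left out, with edgeR adjusted p values up to 0.197 over all alternatives. Between the knockdowns the difference was 0.15 (SE 0.06), which did not pass.

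DNAJB9, an HSP40 co-factor that returns HSPA5 to IRE1, showed the largest difference of the 31 in both comparisons between the systems. It had 57.6, 44.8 and 38.4 CPM in scrambled siRNA and 26.5, 29.2 and 25.3 in scrambled shRNA. With siRNA-2 it had 40.5, 50.9 and 43.2 CPM, with siRNA-3 45.8, 46.9 and 39.5, and with NNT shRNA 28.6, 26.7, 25.4 and 29.7. All 9 siRNA libraries lay above all 7 shRNA libraries. The fold was 1.74 between the scrambled groups (log2 0.80, SE 0.13, edgeR adjusted p = 0.00528) and 1.61 between the knockdowns (log2 0.69, SE 0.10, edgeR adjusted p = 0.00124), and both passed in every alternative.

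DNAJC3, a co-chaperone that also restrains PERK, had 248, 242 and 233 CPM in scrambled siRNA and 195.5, 189 and 189.8 in scrambled shRNA. With siRNA-2 it had 217.5, 237 and 219 CPM, with siRNA-3 239.8, 254 and 219, and with NNT shRNA 203, 172, 206 and 208. All 9 siRNA libraries again lay above all 7 shRNA libraries. It was 1.26-fold higher in scrambled siRNA (log2 0.33, SE 0.08, edgeR adjusted p = 0.0449) and 1.17-fold higher in the knockdowns (log2 0.23, SE 0.06, edgeR adjusted p = 0.0395). The first call was lost without any 1 scrambled library other than siRNA 30-11 (values up to 0.175). The second was lost when NNT shRNA 18-3 or 19-2, siRNA-2 11-1 or 16-1, or siRNA-3 11-1 or 23-5 was left out (up to 0.122). SDF2L1, a co-factor of the HSPA5 complex, had 27.8, 34 and 31.1 CPM in scrambled siRNA and 22.1, 16.7 and 17.8 in scrambled shRNA. With siRNA-2 it had 26.2, 27.6 and 26.5 CPM, with siRNA-3 19.9, 23 and 25.4, and with NNT shRNA 22.8, 20.7, 21 and 18. SDF2L1 was 1.64-fold higher in scrambled siRNA (log2 0.71, SE 0.12, edgeR adjusted p = 0.00703) and missed the threshold without the scrambled shRNA library 19-2 or the scrambled siRNA library 23-5, with values up to 0.0644. In both NNT siRNA groups every library lay below every scrambled siRNA library. The siRNA-3 difference was -0.45 (SE 0.12), which missed the threshold in the main fit (edgeR adjusted p = 0.0639) and passed by DESeq2 (adjusted p = 0.0168), with pairing by title code and without the siRNA-3 library 30-11.

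HYOU1, the large HSP70 relative that exchanges nucleotide on HSPA5, was the 1 member that fell in a knockdown in the main edgeR fit. DESeq2 also called SDF2L1 and CRELD2 lower with siRNA-3 and DERL2 lower with siRNA-2, and pairing by title code called SDF2L1 in place of HYOU1. It had 237, 245 and 252 CPM with siRNA-3 against 288, 295 and 316 in scrambled siRNA, with no overlap. It had 292.5, 294 and 311 CPM with siRNA-2, 304, 302, 298 and 286 with NNT shRNA, and 307, 274 and 282 in scrambled shRNA, so the 3 siRNA-3 libraries lay below the other 13. The siRNA-3 fall was 1.23-fold (log2 -0.29, SE 0.07, edgeR adjusted p = 0.0338). It was lost in 8 of 12 alternatives, among them pairing by title code and leaving out the siRNA-3 library 11-1 or 23-5 or any of the 3 scrambled libraries, with edgeR adjusted p values up to 0.171. Against siRNA-2 the difference had the same size (log2 0.29 higher with siRNA-2, SE 0.07, edgeR adjusted p = 0.00976). That call was lost in 1 of 12 alternatives, the fit of these groups alone.

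CRELD2, a secreted ER stress protein, had 8.71, 7.93 and 8.93 CPM with siRNA-3 against 12.6, 12.6 and 9.61 in scrambled siRNA. It had 10.4, 9.06 and 9.15 CPM with siRNA-2, 12.6, 11.3, 11.8 and 9.14 with NNT shRNA, and 11.6, 10.1 and 10.4 in scrambled shRNA. Its siRNA-3 difference of -0.44 (SE 0.14) did not pass (edgeR adjusted p = 0.0946), while DESeq2 called it (adjusted p = 0.0364). MANF, a secreted factor of the same response, had 98.1, 89.3, 82.6 and 84.1 CPM with NNT shRNA and 82.7, 87.1 and 77.3 in scrambled shRNA. It had 83.8, 70.4 and 87.7 CPM with siRNA-2, 77.4, 76.7 and 87.4 with siRNA-3, and 80.3, 85.9 and 88.2 in scrambled siRNA. HSP90B1 had 1024, 859, 1060 and 1001 CPM with NNT shRNA, 959, 972 and 943 in scrambled shRNA, and 1091, 982 and 1033 in scrambled siRNA. It had 1070, 989.5 and 1063 CPM with siRNA-2 and 1113, 844.5 and 976 with siRNA-3. Neither MANF nor HSP90B1 passed in any comparison, and the largest HSP90B1 difference among the 4 plotted comparisons was 0.11 (SE 0.09). HSPA13, another HSP70, and DNAJB11, an HSP40, had 0 calls in the 8 comparisons of the main edgeR fit.

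**Figure D5:**
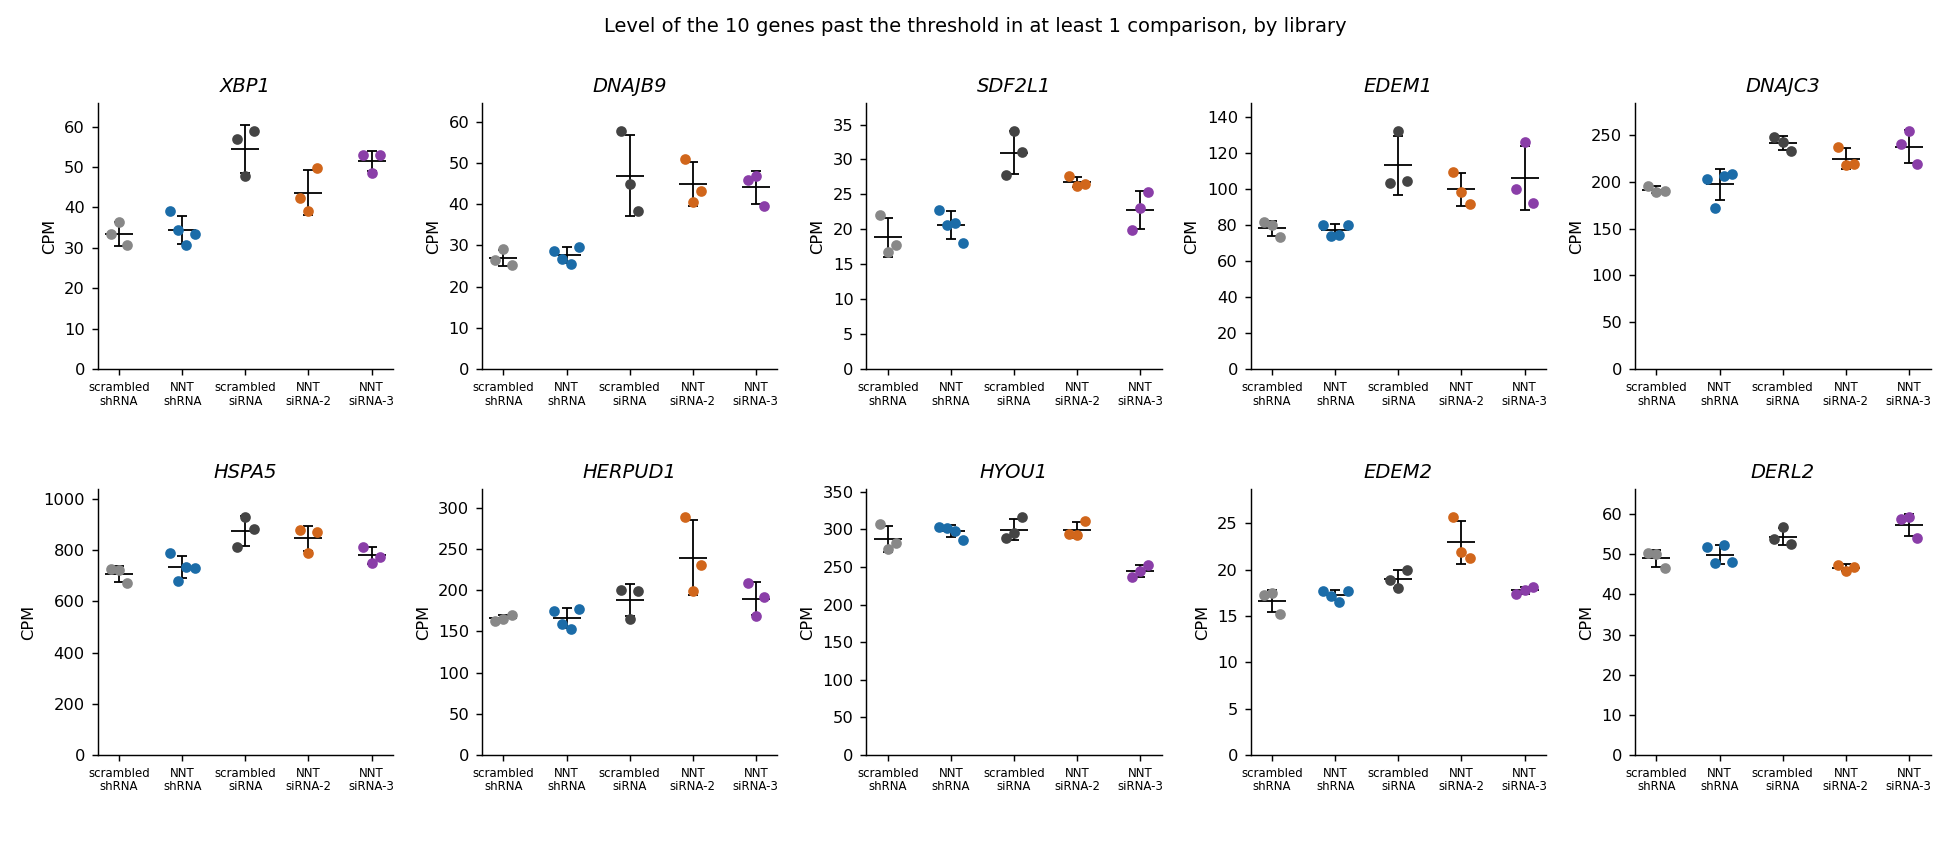
Level of the 10 members past the threshold in at least 1 comparison (y axis, CPM from 0), 1 point a library, with the group mean and SD. DNAJB9 and DNAJC3 separate all 9 siRNA from all 7 shRNA libraries, and HYOU1 is at 237 to 252 CPM with siRNA-3 and at 274 or more in the other 13 libraries.

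The disulfide isomerases and the lectin cycle passed in 0 comparisons. P4HB, the classical disulfide isomerase, had the smallest p among the members in the shRNA knockdown. It had 608.5, 617, 689 and 579.6 CPM with NNT shRNA and 572, 584 and 558 in scrambled shRNA, a log2 difference of 0.13 (SE 0.08) with overlap. It had 674, 669 and 659.5 CPM with siRNA-2, 587, 609 and 672 with siRNA-3, and 609.5, 600 and 706 in scrambled siRNA. PDIA3, which works with the lectin chaperones, and PDIA6 stayed between -0.18 and 0.11 in those 4 comparisons. PDIA4 was the member farthest below 0 between the scrambled groups, at -0.25 (SE 0.11), with overlap. CALR, CANX and UGGT1, which hold and re-glucosylate unfinished glycoproteins, lay between -0.08 and 0.15 in the same 4 comparisons.

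In ER-associated degradation, EDEM1 and HERPUD1 differed between the systems, and EDEM2 and DERL2 between the siRNAs. EDEM1, which trims mannose from proteins bound for degradation, had 103, 132 and 104.5 CPM in scrambled siRNA and 81.6, 80 and 73.6 in scrambled shRNA. It had 98.5, 109.9 and 91.8 CPM with siRNA-2, 100.1, 126 and 92.2 with siRNA-3, and 80.4, 73.8, 74.5 and 80.5 with NNT shRNA. All 9 siRNA libraries lay above all 7 shRNA libraries. EDEM1 was 1.45-fold higher in scrambled siRNA (log2 0.53, SE 0.12, edgeR adjusted p = 0.0256), a call lost without any 1 of the scrambled libraries other than siRNA 30-11, with values up to 0.168. In the knockdowns it was 1.33-fold higher (log2 0.41, SE 0.09, edgeR adjusted p = 0.0126) and passed in every alternative.

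HERPUD1, a membrane organiser of the degradation complex, had 199, 288 and 231 CPM with siRNA-2 and 208, 168.5 and 192 with siRNA-3. It had 199.9, 166 and 199 CPM in scrambled siRNA, 175, 158.5, 153 and 177.5 with NNT shRNA, and 163, 166 and 170.4 in scrambled shRNA. The siRNA-2 library 11-1 stood above the other 15. HERPUD1 was 1.28-fold higher in the NNT siRNA than in the NNT shRNA cells (log2 0.36, SE 0.09, edgeR adjusted p = 0.0273). The call was lost when NNT shRNA 18-3, 19-2 or 2-3, or siRNA-3 11-1, was left out, with values up to 0.0769. Against its own control siRNA-2 gave 0.35 (SE 0.12), which did not pass (edgeR adjusted p = 0.114). Without the siRNA-2 library 11-12 it did (edgeR adjusted p = 0.0335). Against siRNA-3 it gave 0.34 (SE 0.12), which did not pass in the main fit (edgeR adjusted p = 0.0609). That difference passed by DESeq2, with the stricter filter, with pairing by title code and without the siRNA-2 library 11-12.

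EDEM2, which makes the first mannose cut, had 21.9, 25.6 and 21.3 CPM with siRNA-2 and 17.4, 17.8 and 18.2 with siRNA-3. It had 18.9, 18.1 and 20 CPM in scrambled siRNA, 17.7, 17.2, 16.5 and 17.7 with NNT shRNA, and 17.2, 17.4 and 15.3 in scrambled shRNA. All 3 siRNA-2 libraries lay above the other 13. Between the siRNAs EDEM2 was 1.29-fold higher with siRNA-2 (log2 0.37, SE 0.10, edgeR adjusted p = 0.0177), a call lost without the library 11-1 of either siRNA, with values up to 0.0971. DERL2, a channel-like protein of retrotranslocation, had 45.8, 47.4 and 46.8 CPM with siRNA-2 and 58.7, 59.2 and 54.1 with siRNA-3. It had 53.8, 56.8 and 52.6 CPM in scrambled siRNA, 51.7, 47.8, 52.2 and 48 with NNT shRNA, and 50.3, 50 and 46.5 in scrambled shRNA. DERL2 was 1.23-fold lower with siRNA-2 than with siRNA-3 (log2 -0.30, SE 0.08, edgeR adjusted p = 0.0149), a call lost without the siRNA-3 library 11-1, in the paired fit and in the fit of these groups alone. SEL1L, SYVN1, OS9 and DERL1, which form or feed the same ligase complex, did not pass in the main edgeR fit. DESeq2 called SEL1L with siRNA-3, as did edgeR without the siRNA-3 library 30-11. Between the knockdowns of the systems DESeq2 called OS9, lower on average with the siRNAs, as did edgeR with the stricter filter. Among these 4 the largest siRNA-3 difference was that of SEL1L, 0.25 (SE 0.08, edgeR adjusted p = 0.106).

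In the translocon, the channel subunit SEC61A1 had 531.8 CPM at most in the 7 shRNA libraries and 557.8 at least in the 9 siRNA libraries. Its differences between the systems were 0.16 (SE 0.07) for the scrambled and 0.19 (SE 0.06) for the knockdown cells, which did not pass (edgeR adjusted p = 0.273 and 0.0522); DESeq2 called the second. SEC61B had 82.5 CPM in the siRNA-3 library 23-5 and 116 to 171 in the other 15, and did not pass.

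The rest of the secretory pathway was read from lists of genes outside the 31. Between the scrambled groups the translocation, signal peptidase and glycosylation list had 2 of 37 genes higher, SPCS3, a signal peptidase subunit (log2 0.50, SE 0.09, edgeR adjusted p = 0.0124), and SERP1, which steadies membrane proteins at the translocon (log2 0.31, SE 0.07, edgeR adjusted p = 0.0264). Other luminal folding and redox genes had 2 of 39 higher, the ER oxidase ERO1A (log2 0.55, SE 0.12, edgeR adjusted p = 0.0305) and TMX4, a thioredoxin-like membrane protein (log2 0.30, SE 0.08, edgeR adjusted p = 0.0487). The call of ERO1A and of SERP1 was lost without any 1 of the scrambled libraries other than siRNA 30-11, as was that of TMX4, and that of SPCS3 without any 1 other than shRNA 18-3 and siRNA 30-11. In the knockdown cells the same 4 genes were higher with the siRNAs than with the shRNA, SPCS3 by 0.37 (SE 0.07), SERP1 by 0.23 (SE 0.05), ERO1A by 0.38 (SE 0.10) and TMX4 by 0.21 (SE 0.06), with edgeR adjusted p values of 0.00722, 0.0163, 0.0246 and 0.0412. Of these, ERO1A and SERP1 were lost without the NNT shRNA library 18-3 or 19-2, and TMX4 without any 1 library other than NNT shRNA 2-3, siRNA-2 16-1 and siRNA-3 30-11. Other degradation genes had 0 of 33 called in either comparison, with 6 and 5 at an unadjusted p under 0.05.

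The PERK and ATF4 branch raises amino acid supply and stress factors. Genes of its list differed between the NNT siRNAs and the NNT shRNA and between the siRNAs. ATF4 itself passed in neither comparison (log2 0.24, SE 0.11, edgeR adjusted p = 0.184, and log2 0.12, SE 0.14, edgeR adjusted p = 0.594). Whether PERK acted on the listed genes was not tested. Of the 12 genes 5 were higher with the siRNAs than with the shRNA and 0 lower. Over all genes 3.62% were higher and 7.28% were called in either direction. SESN2, a stress-induced regulator of growth signalling, was 1.9-fold higher (log2 0.93, SE 0.16, edgeR adjusted p = 0.00295), and ASNS, asparagine synthetase, 1.55-fold (log2 0.63, SE 0.11, edgeR adjusted p = 0.00369). CHAC1, which breaks down glutathione, DDIT3, a stress transcription factor, and ATF3, another one, were the other 3, at log2 1.04 (SE 0.23), 0.85 (SE 0.24) and 0.91 (SE 0.26). DDIT3 stood at 66.6 CPM in the siRNA-2 library 11-1 and at 12.7 to 32.9 in the other 15. Without that library 3 of the 12 passed, and the count was also 3 without any 1 of the 4 NNT shRNA libraries or the siRNA-3 library 11-1 or 23-5. Between the scrambled groups 0 of the 12 passed, with 1 at an unadjusted p under 0.05 (SESN2, log2 0.58, SE 0.20). Between the siRNAs 6 were higher and 1 lower with siRNA-2 (14.4% of all genes called), and the count higher was 0 without the siRNA-2 library 11-1, 1 without the siRNA-3 library 11-1 and 2 without the siRNA-3 library 30-11. Against scrambled siRNA 3 of the 12 rose with siRNA-2, CHAC1 (log2 1.30, SE 0.28), ASNS (0.60, SE 0.14) and DDIT3 (1.20, SE 0.30), with edgeR adjusted p values of 0.0291, 0.0368 and 0.0477, beside 1.97% of all genes called in either direction. The chromaffin or neural sum was also apart in these groups, at 23.3 to 28.1 CPM with siRNA-2 and 15.6 to 17.9 in scrambled siRNA, and its part was not tested. The siRNA-2 count was 0 without its library 11-1, the siRNA-2 library with the lowest NNT, or without any 1 of the 3 scrambled libraries. It was 6 without the siRNA-2 library 11-12. With siRNA-3 0 of the 12 passed, and 0 had an unadjusted p under 0.05.

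Glucosidase II, which trims glucose to let CALR and CANX bind, fell with siRNA-3. GANAB, its catalytic subunit, was 1.3-fold lower than in scrambled siRNA (log2 -0.38, SE 0.08, edgeR adjusted p = 0.0189) and PRKCSH, its other subunit, 1.31-fold lower (log2 -0.39, SE 0.09, edgeR adjusted p = 0.0271). Both calls were lost without the siRNA-3 library 11-1 or the scrambled library 16-1 or 23-5 and in the fit paired by title code, and PRKCSH also without the siRNA-3 library 23-5 or the scrambled library 30-11. CALU, a calcium-binding protein of the ER, stood at 356, 252 and 427 CPM with siRNA-3, at 611, 517 and 683 in scrambled siRNA and at 919, 884 and 889.5 with siRNA-2. It fell by 0.81 on the log2 scale with siRNA-3 (SE 0.14, edgeR adjusted p = 0.00491) and was 0.57 higher with siRNA-2 (SE 0.14, edgeR adjusted p = 0.0387), so the groups took opposite sides of the control. MESDC2, a chaperone of lipoprotein receptors, and QSOX1, a sulfhydryl oxidase, fell with siRNA-3 by 0.65 (SE 0.11) and 0.53 (SE 0.11) on the log2 scale. The siRNA-3 calls of CALU and MESDC2 passed without any 1 library, that of QSOX1 was lost without the siRNA-3 library 11-1 or the scrambled library 16-1 or 23-5, and the siRNA-2 call of CALU without the siRNA-2 library 11-1 or 16-1 or the same scrambled libraries. GANAB and PRKCSH were also lower in the mean of both siRNAs than with NNT shRNA, at -0.37 (SE 0.06) and -0.41 (SE 0.07). These 5 were the called genes of the 39 in that list, 12.8%, beside 2.12% of all genes. Between the siRNAs the list had 4 higher and 3 lower with siRNA-2, 17.9% of the 39 beside 14.4% of all genes, the largest difference being that of CALU at 1.38 (SE 0.14, edgeR adjusted p = 2.89e-05).

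In the remaining lists few genes passed in the knockdowns. With siRNA-2 UBE2J1, a ubiquitin-conjugating enzyme of the ER, fell by 0.92 on the log2 scale (SE 0.16, edgeR adjusted p = 0.0147), 1 of 33 other degradation genes, and SRPR, a subunit of the signal recognition particle receptor, rose by 0.35 (SE 0.08, edgeR adjusted p = 0.0408), 1 of 37. With siRNA-3 MBTPS1, the protease that makes the first cut in ATF6, rose by 0.39 (SE 0.09, edgeR adjusted p = 0.0254), 1 of 12 genes of the ATF6 and IRE1 branches. The UBE2J1 call was lost without the scrambled library 16-1 or 23-5, that of SRPR without either of these or the siRNA-2 library 11-1 or 16-1, and that of MBTPS1 without either of the same scrambled libraries or the siRNA-3 library 11-1 or 23-5. With NNT shRNA 0 genes of any list passed in edgeR, and none had an unadjusted p under 0.05. Of the 5 decay targets of IRE1, 0 passed in any of the 8 comparisons, with 2 at an unadjusted p under 0.05 between the scrambled groups, 1 between the knockdowns of the systems and 0 in the other 6.

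Between the siRNAs the other degradation genes had 7 of 33 lower and 0 higher with siRNA-2, 21.2% beside 14.4% of all genes called in either direction, led by RNF139, an ER ubiquitin ligase (log2 -0.49, SE 0.08, edgeR adjusted p = 0.0011). The calls of RNF139, UBE2J1 and UBE2K passed without any 1 library, and those of UFD1L, JKAMP, ERLEC1 and UBXN8 were lost without the library 11-1 of either siRNA. The translocation list had 5 of 37 called, 13.5%, beside 14.4% of all genes. There were 4 lower, led by SPCS3 (log2 -0.43, SE 0.09, edgeR adjusted p = 0.00547), and 1 higher, SEC61A2. The calls of SEC61A2 and of the lower genes STT3B, TRAM1 and SRP72 were lost without the library 11-1 of either siRNA, which left SPCS3 alone of these 5. In the ATF6 and IRE1 branches CREB3L1, a membrane-bound transcription factor, was 5.08-fold higher with siRNA-2 (log2 2.34, SE 0.40, edgeR adjusted p = 0.00124). Its call passed in each of the 11 alternatives that gave a value. Against scrambled siRNA its rise with siRNA-2 did not pass (log2 1.44, SE 0.38, edgeR adjusted p = 0.0545). Against NNT shRNA the mean of both siRNAs had 1 of these 12 genes higher, TMBIM6, which restrains ER calcium release (log2 0.31, SE 0.07, edgeR adjusted p = 0.0089). Of the luminal folding and redox list 5 of 39 were lower there, GANAB, PRKCSH, CALU, CNPY4 and TXNDC5. The last 2 were lost when NNT shRNA 18-3 or 19-2 was left out, and TXNDC5 also without NNT shRNA 2-3, siRNA-2 11-1 or siRNA-3 11-1 or 23-5.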

How the data were processed

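The deposited files were tables of counts per gene, 4 lane files for each of 16 libraries made from poly(A) RNA with a stranded kit, per the labels' protocols. The submitters' processing notes name STAR 2.4.2a, HTSeq 0.6.1p1, DESeq2 1.14.1 and build hg19; for the counting, neither annotation nor strand setting was found in these sources. The lanes of a library differed by close to sampling noise (chi-square per degree of freedom 0.999 to 1.04) and were summed. Reads in no gene (11.3 to 16.5% of a library), ambiguous reads (1.05 to 1.33%) and multiply aligned reads (7.47 to 8.17%) were left out. The siRNA-2 library 11-1 had the largest share in no gene. Its chi-square per degree of freedom was 39 against library 11-12 and 35.5 against 16-1. The pair 11-12 and 16-1 had 8.54, and pairs within other groups reached 37.8.

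All 16 libraries entered 1 fit in edgeR 4.0.16 under R 4.3.3, with a term for each of the 5 groups, TMM scaling, a low-count filter (minimum count 10), quasi-likelihood tests and Benjamini-Hochberg adjustment over 15201 genes called at an adjusted p under 0.05. Libraries of a group varied with a biological coefficient of variation of 0.118 (11 residual degrees of freedom). CPM used TMM-scaled totals. Of 8 comparisons, 7 were planned and 1 was added after the data had been seen. The members, lists and rule for named genes were chosen with earlier results of these data known. The rule gave values in every library for 9 central members, each member past the threshold and the 3 with the smallest p in each comparison; of other lists it took called genes and the smallest p of each list. CALU and DDIT3 levels were chosen after their values were seen.

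No label states that replicate libraries are separate cultures; the p-values then reflect only spread between libraries, which may be technical. Triplicates are stated, but NNT shRNA has 4 libraries. For the shRNA libraries, correlations of deviations between those of the same title code were 0.141, 0.213 and 0.133. NNT shRNA 2-3 and scrambled shRNA 24-2, of unlike codes, had 0.156, so these values do not set the code pairs apart. No statement in the labels gives a pairing. The replicate block changed no member call in the shRNA comparison. Exon lengths came from GENCODE version 29 (GRCh38), on which 14 of the 31 members overlap an exon of another gene, 5 of them (DNAJB11, PDIA3, PDIA6, P4HB and OS9) over more than 20% of their length. PDIA3 also has a processed copy, PDIA3P1, with 131 to 280 counts. Reads that align to both would be among the multiply aligned reads left out, so these counts do not bound the uncertainty of PDIA3. No protein sequence was used here. Alternatives were DESeq2's size factors, no filter, a filter at 5 CPM in at least 3 libraries, a fit of the compared groups alone, the replicate block, DESeq2 1.42.0 and leaving out each library.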

Additional observations from a re-analysis of the deposited data

Results flagged for a closer look

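The effects of the siRNAs on 3 members differed from each other by the test of siRNA-2 against siRNA-3, which share their control; 3 of 31 is 9.68%, beside 14.4% of all genes, and a fit of these libraries alone called 0 of the 3. HYOU1 was 0.29 higher with siRNA-2 on the log2 scale, EDEM2 was 0.37 higher, and DERL2 stood at -0.30 (edgeR adjusted p = 0.00976, 0.0177 and 0.0149). The 3 libraries of 1 siRNA lay on 1 side of the 3 of the other in each gene. NNT itself differed between these groups, at 49.9 to 233 CPM with siRNA-2 and 31.8 to 47.8 with siRNA-3, and its part in the 3 differences was not tested.

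DNAJC3 had 172 CPM in the NNT shRNA library 19-2 against 203 to 208 in the other 3 of that group, a gap of 0.862 of the whole range where 0.829 is the limit for 4 samples. Chance passes this limit in about 1 in 20 groups, and 31 members were looked at.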

How the results depend on the processing

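The 36 member fold changes followed were chosen by their p in the main fit. They were called, among the 3 smallest of a comparison, or under 0.05 unadjusted for a member called elsewhere. This choice favours a steady direction. None of the 36 turned its direction over the 495 values from the alternatives, and 10 lost their call in at least 1. The 0 calls for the shRNA, the mean siRNA and the difference of effects held in every alternative. For siRNA-2 DESeq2 called 1 member, and leaving out a library gave 0 to 1 with a median of -0.044 to -0.002. For siRNA-3 the 1 call became 0 with no filter or with only the groups compared and 4 with DESeq2, and 0 to 3 without a library. Between the siRNAs the 3 calls became 0 with only the groups compared, and 1 to 4 without a library. Between the scrambled groups the 6 calls stayed 6 with DESeq2, with its size factors and with the stricter filter. They became 4 with no filter, 5 with only the groups compared and 2 to 5 without a library, with a median of 0.122 to 0.156. Between the knockdowns of the 2 systems 5 calls became 3 with only the groups compared and 10 with DESeq2, and 3 to 6 without a library, with a median of 0.046 to 0.137. The mean siRNA median ran from -0.065 to -0.026. The cause of these changes was not tested; leaving out a library or a group leaves fewer libraries in the fit, while the DESeq2 and filter settings use them all.

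The siRNA title codes paired the libraries in part: correlations of deviations were 0.361 and 0.367 for 23-5 and 30-11, and -0.019 and 0.014 for 11-1 and 16-1. With the replicate block the siRNA-2 median was -0.025, the median between the siRNAs -0.012 (0.034 without it), the calls between the siRNAs 5, and the siRNA-3 call passed from HYOU1 to SDF2L1. No paired analysis was possible between the systems, because their libraries share no code.

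Over all genes, DESeq2 called 905 against 299 for siRNA-2, 859 against 323 for siRNA-3, 287 against 35 for their mean, 11 against 1 for the difference of effects, 648 against 264 between the scrambled groups and 1765 against 1107 between the knockdowns. With only the groups compared the counts were 1, 56, 2 and 586 for siRNA-2, siRNA-3, their mean and the knockdowns, and 530 against 2191 between the siRNAs. With no filter they were 464 for siRNA-2, 85 for the mean and 0 for the difference; with the block 490 for siRNA-2, 2 for the mean and 1 against 3 for the shRNA, which also had 1 with the stricter filter. Without 1 library the counts over all genes ran from 2 to 619 for siRNA-2, 69 to 530 for siRNA-3, 2 to 55 for the mean, 1091 to 2101 between the siRNAs, 32 to 456 between the scrambled groups, 441 to 1288 between the knockdowns, 1 to 2 for the shRNA and 0 to 2 for the difference, so the background shares move with the libraries.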
